A study of Mus musculus with 2 samples.

Results

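The unannotated intergenic loci are places on chromosomes 1 to 19 where long reads were assembled into transcript models that were classed as intergenic. They were selected on the read tables themselves: models of the class Intergenic that overlapped on 1 strand were merged across both libraries, and a locus was kept when both libraries held at least 1 read of it. Of 4340 such loci seen in either library, 748 (17.2%) were kept, out of 3041 loci read in replicate 1 and 2047 read in replicate 2. By position, 107 of the 748 overlapped an annotated gene on the opposite strand. Of the 107, 92 began on the start base of such a gene and ran away from it. On their own strand, 72 loci overlapped a gene by 1 base. Reads in both libraries are therefore a condition of membership and not a finding. Just inside that limit lay 268 loci with 1 read in each library. Just outside it lay 3592 loci read in 1 library only, 3068 of them (85.4%) with a single read and none with more than 56 reads.

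RNA came from adrenal gland tissue of female B6CASTF1/J mice, an F1 cross, aged 14 days, and was measured by long-read RNA sequencing. There was 1 group with 2 libraries, biological replicates 1 and 2, and no treatment or control. The tissue name of replicate 1 lists 3 females, while replicate 2 has 1 numbered female, so the first may be a pool. The description of both libraries lists 3 females, however, and both carry 1 shared donor identifier, so whether they came from separate animals is not settled by the labels. With 1 library per tissue sample, the spread between animals cannot be told apart from that of library preparation, and every test below compares these 2 libraries by counting error alone. Reads have no molecular identifiers, so intervals and limits cover counting error only.

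Intergenic RNA can come from unannotated genes, from transposable elements that carry their own promoters, from RNA that runs past the end of a gene, and from promoters that fire in both directions. The last kind starts close to the start of a known gene and runs away from it on the other strand. A multi-exon read shows that an RNA was spliced, while a single-exon read can be a mature RNA, an unspliced precursor or a fragment. The class is set by position relative to the annotation (GENCODE M21 on the mm10 assembly), so a locus is only as unannotated as that release.

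Replicate 1 held 1143111 reads and replicate 2 held 991731, of which 1065570 and 946553 lay in annotated genes. Levels are given in CPM, reads per 1000000 gene reads, and a count of 0 allows up to 2.82 CPM in replicate 1 and 3.17 CPM in replicate 2. All 7 markers of adrenal cortex (Cyp11a1, Star, Hsd3b1, Cyp21a1, Cyp11b1, Nr5a1 and Mc2r) had reads in both libraries, summing to 54179 CPM in replicate 1 and 24213 CPM in replicate 2. All 6 chromaffin markers were read too, with 11619 and 4476 CPM. The libraries stood apart in markers of liver: 8 hepatocyte genes (Alb, Apoa1, Apoa2, Ttr, Ahsg, Trf, Serpina1a and Fgb) summed to 705 CPM in replicate 1 and 77421 CPM in replicate 2, with none of them at 0 in either. Skeletal muscle markers summed to 71.3 and 1653 CPM, with Myh1 and Tnnt3 at 0 in replicate 1, erythroid markers to 9112 and 2906 CPM, and adipocyte markers to 6736 and 7741 CPM. In bulk tissue, fewer cells of a type and less RNA per cell cannot be told apart.

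Sequence was at hand where a locus met a window at the start of a gene in RefSeq (build GRCm38.p6, the assembly that mm10 names). Both loci that lay whole inside such a window ran away from a protein-coding gene on the opposite strand, and they are shown because the letters between their model edges are complete. The first, opposite the zinc-finger gene Zfp207, drew 3 and 3 reads in replicates 1 and 2, and the second, opposite Cttnbp2nl, had 2 and 1. Both begin at the base where the gene on the other strand begins, so where the RNA itself starts cannot be read from these models. Capitals mark AATAAA, the hexamer that directs cleavage and addition of the poly(A) tail.
locus opposite Zfp207, chr11:80383041-80383279, minus strand: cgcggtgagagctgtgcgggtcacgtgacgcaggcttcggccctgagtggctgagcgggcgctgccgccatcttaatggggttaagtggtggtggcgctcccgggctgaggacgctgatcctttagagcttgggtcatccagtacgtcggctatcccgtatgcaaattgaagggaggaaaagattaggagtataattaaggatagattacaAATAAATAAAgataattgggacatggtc
locus opposite Cttnbp2nl, chr3:105053146-105053332, plus strand: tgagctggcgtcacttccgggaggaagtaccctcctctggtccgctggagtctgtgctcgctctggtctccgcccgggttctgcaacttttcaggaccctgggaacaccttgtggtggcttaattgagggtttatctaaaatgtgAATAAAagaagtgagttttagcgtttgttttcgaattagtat
AATAAA began 24 bases before the end of the 239-base locus opposite Zfp207, where a second copy overlaps the first. It began 42 bases before the end of the 187-base locus opposite Cttnbp2nl, just outside a window of 40 bases.

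For 9 loci the last 40 bases lay inside a RefSeq window, and 5 of the 9 held AATAAA or ATTAAA there, on the strand of the locus. Over 98553 stretches of 40 bases at fixed places in all windows, 2.36% did. Gene starts are not a sample of intergenic ends, so the share is a description of these 9 only. The 4 further ends with the hexamer are shown with it in capitals. The locus opposite the zinc-finger gene Zfp933 drew 8 reads in replicate 1 and 2 in replicate 2. The locus that runs from the start of Qser1 had 5 and 5, and the 2 others had 1 and 2 reads each.
end of chr4:147848366-147848633, chr4:147848594-147848633, plus strand: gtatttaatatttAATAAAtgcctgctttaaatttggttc
end of chr2:104816760-104818678, chr2:104818639-104818678, plus strand: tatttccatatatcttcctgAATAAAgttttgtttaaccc
end of chr13:28958151-28960045, chr13:28960006-28960045, plus strand: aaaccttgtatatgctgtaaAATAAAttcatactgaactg
end of chr5:93221346-93221523, chr5:93221484-93221523, plus strand: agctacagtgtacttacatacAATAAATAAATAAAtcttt
The last copy of the hexamer began 27, 20, 20 and 11 bases before the end, in that order. Of the 4 ends without it, those at Nfat5 and Trim43a lay on the annotated start base of the gene itself. A genome sequence was not used here, so the letters of the other loci are not given.

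A start in RefSeq that the deposited annotation lacks was matched by some loci. Within 250 bases of a RefSeq gene start on the same strand lay the 5′ ends of 25 loci, 19 of them with spliced reads, and 16 lay within 100 bases. The most read of these with spliced reads, chr4:3192265-3200300 at Gm52720 (13 reads in replicate 1, all spliced, and 9 unspliced in replicate 2), has an exon layout shared with other loci, and its window is not shown. The 250 bases before the start are shown for the next 2 among those within 100 bases, because here an intergenic model meets an independently annotated promoter. The chr8:126978048-126979345 locus (12 reads in replicate 1 and 9 in replicate 2) began 93 bases inside the non-coding gene Gm29688, and chr2:167847115-167847798 (2 and 8 reads) began 44 bases inside Gm32800. Capitals mark the GC box GGGCGG, the CCAAT box and the TATA box TATAAA on either strand, binding sequences of general promoter factors.
Gm29688, chr8:126979439-126979688, minus strand: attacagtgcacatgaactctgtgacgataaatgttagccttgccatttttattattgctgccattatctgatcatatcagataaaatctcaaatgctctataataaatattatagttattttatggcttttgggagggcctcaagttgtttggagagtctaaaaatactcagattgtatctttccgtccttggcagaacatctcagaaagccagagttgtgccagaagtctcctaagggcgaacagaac
Gm32800, chr2:167847843-167848092, minus strand: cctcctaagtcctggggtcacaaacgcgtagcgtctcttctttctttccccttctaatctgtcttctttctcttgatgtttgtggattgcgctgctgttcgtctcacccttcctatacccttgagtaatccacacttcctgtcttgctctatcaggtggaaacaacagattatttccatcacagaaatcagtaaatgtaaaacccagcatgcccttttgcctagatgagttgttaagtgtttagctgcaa
Neither window held any of the 3 motifs, and their GC content was 37.6% and 44.0%. These 2 do not stand for the set. Over the windows of all 25 loci, 36.0% held GGGCGG, 32.0% held CCAAT and none held TATAAA, with a median GC content of 55.2%.

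Other loci share their start with a gene on the opposite strand, and the corresponding windows are shown for the most read locus with a matching RefSeq start, for 1 of 2 loci that tie for the next place (Kpnb1 is taken before Pomt1 by position) and for the most read spliced one. The window is written on the strand of the named gene, so the locus runs through it in the opposite direction. Tbc1d22a encodes a protein with a Rab GTPase-activating domain, Kpnb1 encodes importin beta, which carries proteins into the nucleus, and Usp24 encodes a deubiquitinase. Their divergent loci had 54 and 35, 6 and 5, and 4 and 6 reads in replicates 1 and 2, all reads of the last being spliced.
Tbc1d22a, chr15:86214209-86214458, plus strand: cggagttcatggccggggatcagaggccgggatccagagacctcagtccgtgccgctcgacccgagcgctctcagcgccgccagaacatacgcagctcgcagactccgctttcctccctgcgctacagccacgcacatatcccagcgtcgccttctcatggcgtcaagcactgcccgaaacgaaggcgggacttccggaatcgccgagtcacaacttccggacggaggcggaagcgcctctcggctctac
Kpnb1, chr11:97187893-97188142, minus strand: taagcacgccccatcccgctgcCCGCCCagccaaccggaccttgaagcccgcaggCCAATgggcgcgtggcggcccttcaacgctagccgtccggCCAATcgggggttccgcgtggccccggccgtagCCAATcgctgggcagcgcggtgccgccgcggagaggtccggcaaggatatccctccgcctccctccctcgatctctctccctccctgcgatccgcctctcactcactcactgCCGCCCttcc
Usp24, chr4:106315963-106316212, plus strand: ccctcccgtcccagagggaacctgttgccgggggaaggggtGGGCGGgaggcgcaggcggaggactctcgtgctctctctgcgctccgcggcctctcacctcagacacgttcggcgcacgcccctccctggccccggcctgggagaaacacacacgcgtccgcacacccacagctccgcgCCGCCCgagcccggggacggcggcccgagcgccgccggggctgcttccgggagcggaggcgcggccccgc
The Tbc1d22a window held no motif, at 64.8% GC and 29 CpG. The Kpnb1 window held 2 copies of GGGCGG and 3 of CCAAT at 70.8% GC, and the Usp24 window 2 copies of GGGCGG at 76.8% GC. Over the 64 divergent loci with a RefSeq start within 250 bases, 60.9% of windows held GGGCGG, 42.2% held CCAAT and 4.69% held TATAAA, with a median GC content of 60.2%. Over all 32851 windows in the table the shares were 32.7%, 33.8% and 12.4%, and the median 52.4%. A match is a run of letters and not a shown site of binding.

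Most loci were sparsely read. The median locus had 3 reads over both libraries (interquartile range 2 to 7), 73 had at least 5 reads in each library, and 49 had at least 20 in sum. All 748 together held 3587 reads in replicate 1 and 2307 in replicate 2, which is 0.314% and 0.233% of all reads. These were 54.2% and 58.9% of the reads on intergenic models of these chromosomes. The 10 most read loci took 21.8% and 22.2% of the loci's reads. Both strands were alike, with 373 loci on the plus and 375 on the minus strand, and the number per chromosome lay between 21 on chromosome 16 and 68 on chromosome 4.

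**Figure D1:**
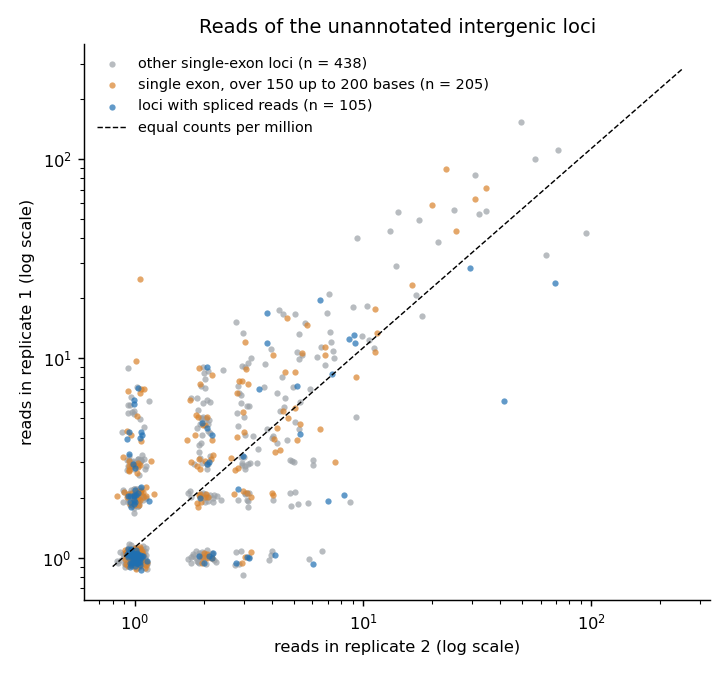
Reads of each of the 748 loci in replicate 1 (vertical, log scale) against replicate 2 (horizontal, log scale); points are loci, slightly scattered so that equal values can be seen, and the dashed line marks equal CPM. Most loci lie at 1 to 3 reads, and among the well-read loci more lie above the line than below it.

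The most read locus was a single exon of 150 bases at chr13:55184770-55184919 on the plus strand, 16011 bases downstream of Fgfr4, a fibroblast growth factor receptor gene. There were 160 reads of it in replicate 1 and 47 in replicate 2, and its model had the same first and last base in both libraries. Fgfr4 itself had 49 and 49 reads. The second was chr11:100457022-100461670 on the plus strand, with 114 and 55 reads. It begins on the annotated end of Klhl10, an adaptor of a ubiquitin ligase known from spermatids, and overlaps Klhl10 as RefSeq draws it. The models of the 2 libraries ended on the same base but began 2160 bases apart, so only the longer model reached that end. No read of Klhl10 itself was seen in either library.

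The third and eighth most read loci begin on the end of a processed pseudogene, a copied mRNA without introns. The locus chr12:24637939-24638669 at Gm6969 had 100 reads in replicate 1 and 67 in replicate 2, and Gm6969 had 10 and 41. Its models in the 2 libraries began 539 bases apart and ended 64 bases apart, so only 1 of them begins on the pseudogene's end. The locus chr12:10898572-10898986 at Pgk1-rs7, a copy of the phosphoglycerate kinase mRNA, had 32 and 67 reads, and Pgk1-rs7 had 25 and 26. Reads on such copies can be shared with the parent gene or other copies, so these values are uncertain.

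The fourth was chr19:4060333-4066103 on the minus strand (40 reads in replicate 1 and 93 in replicate 2), a span of 5771 bases that ends 764 bases before the start and 2856 bases before the end of the glutathione transferase gene Gstp3. The locus chr11:86811826-86814522 (84 and 29) ended 4080 bases before the start and 42980 bases before the end of the helicase gene Dhx40. The other 3 single-exon loci among the leading 10 were short: 172 bases at chr7:126099723-126099894 (86 and 25 reads), 179 bases at chr7:126643198-126643376 (75 and 36) and 181 bases at chr17:74140819-74140999 (65 and 28). The tenth, chr11:88890249-88896411 on the minus strand, had 25 and 66 reads, all of them spliced. Of the 10, the chr19, Pgk1-rs7 and spliced chr11 loci had more reads in replicate 2, and the other 7 more in replicate 1.

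Spliced reads were a minority. At the 748 loci 275 of 3587 reads in replicate 1 were spliced, 7.67% (exact Clopper-Pearson 95% interval 6.82 to 8.59), and 247 of 2307 in replicate 2, 10.7% (9.47 to 12). Intergenic loci read in 1 library only were close to this, at 8.01% in replicate 1 and 10.4% in replicate 2. At loci antisense to annotated genes and read in both libraries, an unannotated class taken in the same way (4887 loci), 2.54% and 3.55% of reads were spliced. In annotated genes 89.5% and 90.6% were, and in annotated lincRNA genes, the long intergenic non-coding class, 44.4% and 60.3%.

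The share differed between the libraries by Fisher's exact test, two-sided (p = 7.73e-05, a difference of -3.04 percentage points, replicate 1 minus replicate 2). Replicate 1 had the lower share in each of the other classes above too. The size of the difference at these loci depended strongly on 1 locus. Without the spliced chr11:88890249-88896411 locus, a choice made after the data were seen, the shares were 7.02% in replicate 1 and 8.08% in replicate 2 (p = 0.136, Fisher's exact test).

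Spliced reads occurred at 105 loci (14.0%): in both libraries at 68, in replicate 1 only at 23 and in replicate 2 only at 14. The longest model of the locus had 2 exons at 76 loci, 3 at 20 and 4 or more at 9, with at most 6. The remaining 643 loci had single-exon models only. A locus with spliced reads spanned a median of 4731 bases, against 511 bases for the single-exon loci. The 68 loci spliced in both libraries held 102 introns in replicate 1 and 94 in replicate 2. Of these, 63 were identical to the base in both (61.8% and 67.0%). The lengths of the 63 had a median of 1093 bases and a range of 57 to 45242. Introns at loci spliced in 1 library only are not in these counts. Of the 68 loci spliced in both libraries, 54 shared an intron and 41 shared a whole chain.

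The 5 loci with most spliced reads in both libraries all had 2 exons. The leading one, chr11:88890249-88896411, had a first exon of 204 bases, an intron of 3094 and a last exon of 2865, and lay 27609 bases from the end of the carboxypeptidase gene Scpep1. The second, chr17:34996683-35000354 on the minus strand, had 27 spliced reads in replicate 1 and 28 in replicate 2, with exons of 186 and 2740 bases around an intron of 697. It overlaps D17H6S56E-5 of RefSeq and begins 633 bases from the start of Vars, the valyl-tRNA synthetase gene, on the opposite strand. The gene Msh5 as drawn in the deposited transcript models also overlaps it on the same strand, while no gene of GENCODE M21 does. Models of other classes with an intron of this locus held 9 reads in replicate 1 and 6 in replicate 2. The fourth was the Gm29688 locus on chromosome 8, with 12 and 9 spliced reads and exons of 58 and 166 bases.

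The other two shared a layout that came back elsewhere. At chr7:48124177-48132211 (19 spliced reads in replicate 1 and 6 in replicate 2) a first exon of 218 bases was joined over an intron of 5306 to a last exon of 2511. At chr10:79314315-79322344 (9 and 8) the lengths were 220, 5299 and 2510. In all, 8 loci on 5 chromosomes held a 2-exon model with an intron of 5200 to 5400 bases, limits set after the lengths had been seen. Their introns had 5276 to 5319 bases. In 7 of them the first exon had 204 to 221 bases and the last 1639 to 2876, while the chr8:71945234-71951038 locus had 150 and 356. These models drew 46 reads in replicate 1 and 25 in replicate 2, which is 16.7% and 10.1% of the spliced reads at all the loci. Lengths near those of the chr7:48124177-48132211 and chr10:79314315-79322344 loci stood outside the intergenic class. The annotated transcript of Gm47547 on chromosome 14, with exons of 201 and 2512 bases and an intron of 5249, had 14 and 7 reads, and a model with an unannotated splice site in Gm49708 on chromosome 16 (222, 5313 and 2513) had 38 and 17. Exon lengths alone also came back with other introns. The leading chr11:88890249-88896411 locus (204, 3094 and 2865) had exons like those of chr10:41437202-41445558 (205, 5276 and 2876 in replicate 1). So had chr8:119889635-119896485 (204, 3771 and 2876 in replicate 2). Copies so alike in length can share reads, so the split of reads between them is uncertain, that of the chr11 locus included. No annotation of repeats was used here.

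**Figure D2:**
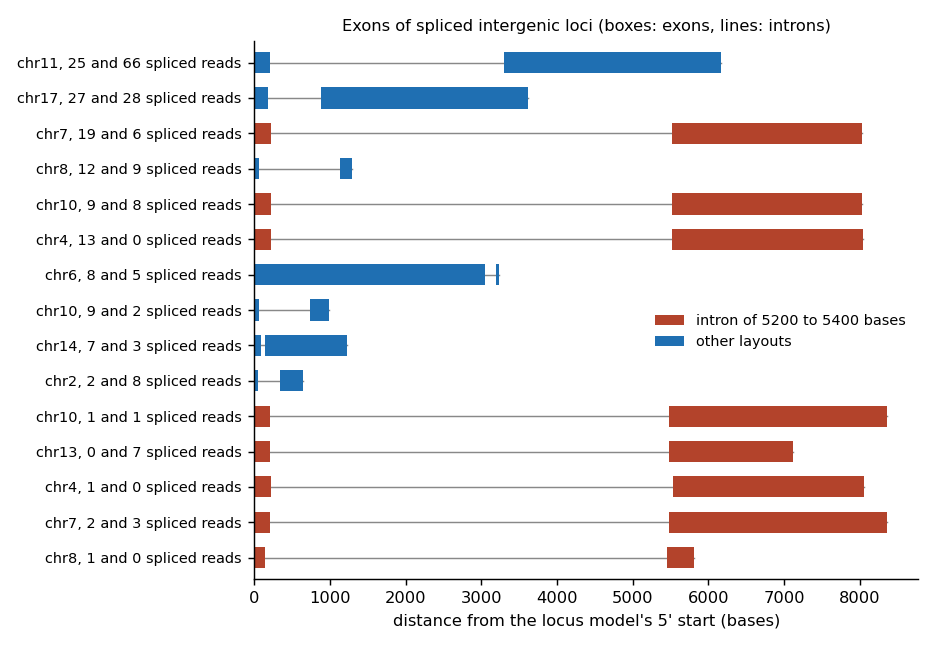
Exons (boxes) and introns (lines) of the most read spliced model of the 10 loci with most spliced reads and of the other loci with an intron of 5200 to 5400 bases, on a scale of bases from the 5′ start; labels give the chromosome and the spliced reads in replicate 1 and then in replicate 2. The 8 models in red place their second exon at about the same distance from the start, and 7 of them have first exons of 204 to 221 bases.

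At 3 loci with at least 20 reads, the spliced share was complete in 1 library and nil in the other. At chr4:133096300-133101553 6 of 6 reads in replicate 1 were spliced and 0 of 42 in replicate 2 (adjusted p = 3.99e-06, Fisher's exact test, adjusted over 49 loci by Benjamini-Hochberg). At chr4:143975617-143978490 it was 0 of 13 in replicate 1 and 9 of 9 in replicate 2, and at chr4:3192265-3200300 13 of 13 and 0 of 9 (adjusted p = 3.28e-05 for each, the same exact test). In each case the library without spliced intergenic reads held models of another class with an intron of the locus: 4 reads at the first in replicate 2, 13 at the second in replicate 1 and 6 at the last in replicate 2. The assigned class, which the selection uses, thus differed between the libraries for the same intron.

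Lengths of the single-exon loci piled up in a narrow band. At over 150 and up to 200 bases, limits set after the lengths had been seen, lay 205 loci (27.4% of all 748), with a median of 178 bases and an interquartile range of 174 to 180. They held 979 reads in replicate 1 and 546 in replicate 2, 27.3% and 23.7% of the loci's reads. Only 147 of the 4887 antisense loci (3.01%) fell in the same band, whereas 25.1% of the intergenic loci read in 1 library did. Annotated models of this length took 0.398% and 0.347% of gene reads.

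**Figure D3:**
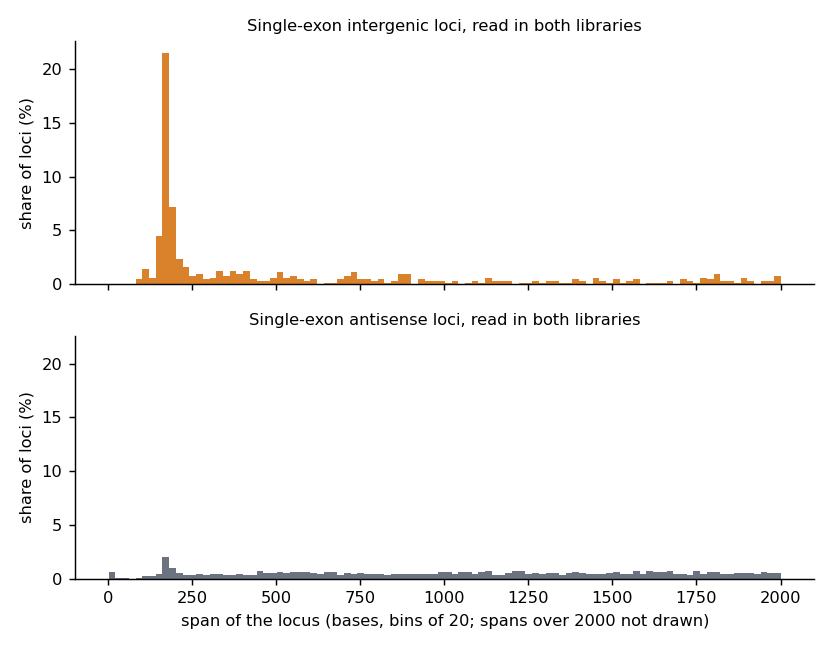
Share of single-exon loci (vertical, %) by span in bins of 20 bases up to 2000 (horizontal), for the 643 intergenic loci above and 4424 antisense loci below, all read in both libraries; 157 and 2198 loci with longer spans are not drawn. The intergenic loci have a narrow peak just below 200 bases that reaches over 20% in 1 bin, and the antisense loci stay near or below 2% throughout.

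The span of a locus covers the models of both libraries, so a locus with unlike ends would lie outside the narrow band, and agreement of ends is given for longer loci. Among the 427 loci longer than 500 bases the leading models of 40.5% began and of 76.3% ended within 25 bases of the same edge in the other library, and among antisense loci 38.3% and 75.6% did. Part of this is set by the annotation, since 150 of the 748 loci begin (20.1%) and 30 end (4.01%) exactly on an edge of an annotated transcript of either strand. Leaving out loci with such an edge, 31.3% of 294 loci over 500 bases began and 78.6% ended within 25 bases.

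By gene reads, the short band had the higher level in replicate 1, although with spike-in scaling its ratio was 1.06 (exact counting interval 0.954 to 1.18). Its reads came to 919 and 577 CPM in replicates 1 and 2, which is a ratio of 1.59 (exact counting interval 1.43 to 1.77). Annotated models of over 150 and up to 200 bases had a ratio of 1.15 (1.10 to 1.20). Intergenic loci over 500 bases had a ratio of 1.24 (1.16 to 1.33), which spike-in scaling turned round to 0.826. Per locus, the CPM was higher in replicate 1 at 93 and in replicate 2 at 112 loci of the band, of which 12 had at least 20 reads. Loci with equal reads fall to replicate 2 in that tally, because it had fewer gene reads, so nothing is read from it. Over all 748 loci, 329 had more reads in replicate 1, 102 had more in replicate 2 and 317 had equal reads. The 4 most read loci farther than 50000 bases from any gene end on their strand included 3 of the short band. Besides the chr7:126099723-126099894 and chr17:74140819-74140999 loci the third was chr2:50017464-50017642 (60 reads in replicate 1 and 20 in replicate 2), 110693 bases from the nearest gene end. The last was longer: chr17:86165463-86167785 (13 and 5 reads) begins at the start of Prkce, a protein kinase C gene, on the opposite strand.

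Distance to the nearest gene end on the same strand had a median of 14492 bases, with 144 loci beyond 50000 bases and the farthest at 498978. Counting only ends upstream of the locus, which RNA running past a gene would meet, 180 loci (24.1%) lay within 5000 bases downstream of one. Among antisense loci the share was 10.7%, among intergenic loci read in 1 library 24.0%, among loci with spliced reads 12.4% and in the short band 10.2%. These loci held 923 reads in replicate 1 and 657 in replicate 2. The distances were uneven: 58 loci began on the last base of a gene, 61 in all lay within 500 bases and 80 within 1000. The overlap of 72 loci with an annotated gene on their strand was 1 base in every case. Since many edges coincide with annotated bases, the distance of the reads themselves cannot be read from such models.

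**Figure D4:**
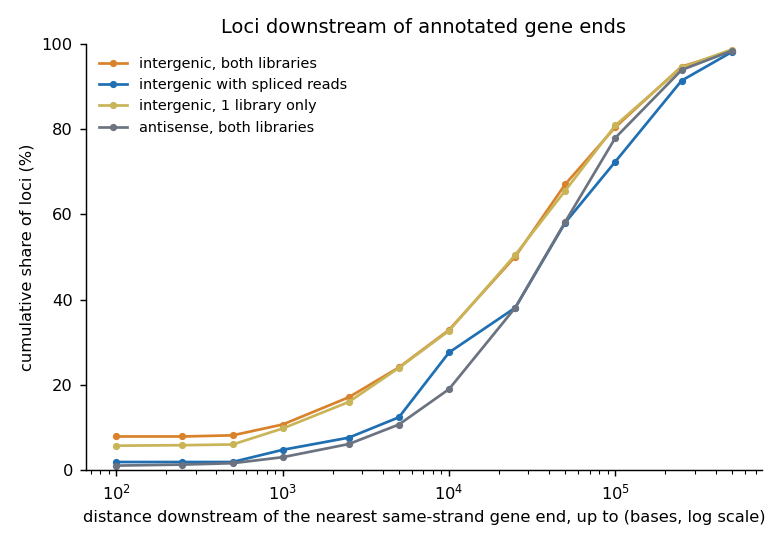
Cumulative share of loci (vertical, %) by distance downstream of the nearest annotated gene end on the same strand (horizontal, bases, log scale), for 4 sets of loci. Intergenic loci read in both libraries and in 1 library run together and reach about 24% at 5000 bases, against 12.4% for loci with spliced reads and 10.7% for antisense loci.

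The upstream neighbour of these 180 loci was protein-coding for 100, a pseudogene for 55 and of another type for 25. Of the 100 protein-coding neighbours 80 had reads in both libraries and 9 had none, and 77 loci had fewer reads than their neighbour, with medians of 3 for the loci and 38.5 for the neighbours. Of the 55 pseudogenes 28 had no read. The 58 loci that begin on a gene's last base comprised 31 at pseudogenes, 23 at protein-coding genes and 4 others. The fourth most read locus near a gene end, chr7:34182938-34183114, had 47 reads in replicate 1 and 25 in replicate 2, and lay 1385 bases past Pdcd2l, which had 41 and 26.

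Neighbours of interest in this tissue, picked after their values were seen, are given with both sets of reads. The locus chr8:128504595-128505473 lies 1232 bases past the annotated end of Nrp1, a receptor for semaphorins and vascular growth factor, overlaps Nrp1 as RefSeq draws it, and had 18 reads in replicate 1 and 18 in replicate 2, while Nrp1 had 92 and 90. The locus chr6:38687514-38689557, 4833 bases past the annotated end of the kinase gene Hipk2 and overlapping its RefSeq gene, had 18 and 10, and Hipk2 had 13 and 9. Past Hsd3b1, a dehydrogenase of steroid synthesis, chr3:98848915-98850431 had 8 and 2 reads beside 8617 and 3577 in the gene, which it overlaps as RefSeq draws it. Past H2-Q10, a class I histocompatibility gene expressed mainly in liver, chr17:35478473-35483042 had 12 and 11 reads, while H2-Q10 had 1 in replicate 1 and 330 in replicate 2. The ratio of CPM in replicate 1 over replicate 2 was 0.969 (exact counting interval 0.391 to 2.42) for that locus and 0.00269 (6.79e-05 to 0.0151) for H2-Q10.

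Divergent loci, with a gene start on the opposite strand within 1000 bases upstream of or at their own start, numbered 111 (14.8%). They held 417 reads in replicate 1 and 313 in replicate 2. The share was 1.74% of antisense loci, which are mostly defined by lying across a gene, 11.4% of intergenic loci read in 1 library, 20.0% of loci with spliced reads and 2.93% of the short band. Of the 111, 92 began on the very base of the annotated start. With edges that coincide with annotated bases, the start of the reads themselves cannot be read from these models. The most read was the Tbc1d22a locus (54 and 35 reads), whose last base also touches the small nuclear RNA gene Gm22818 on its strand. Next came D17H6S56E-5 beside Vars, then chr10:45064855-45067203 from the start of Prep, a prolyl endopeptidase gene (29 and 14), and chr7:16047921-16049059 from Bicra (23 and 17), a chromatin-remodelling subunit gene. A locus with 2 reads in each library started at Phox2a, a transcription factor gene of noradrenergic and chromaffin cells.

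Against RefSeq, 98 loci (13.1%) overlapped a gene on their strand. A non-coding gene was overlapped by 50 and a protein-coding gene by 49, of which 31 lay within 5000 bases past a gene end of the deposited annotation. Among loci with spliced reads 31 of 105 (29.5%) overlapped a RefSeq gene, and among single-exon loci 10.4%. On either strand, a RefSeq pseudogene was overlapped by 41 loci, a transfer RNA gene by 4 and a microRNA hairpin by none.

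Between the libraries, the loci's summed CPM was higher in replicate 1, 3366 against 2437 CPM in replicate 2, a ratio of 1.38 (exact counting interval 1.31 to 1.46), but the direction turned round to 0.919 (0.872 to 0.969) when scaled by the ERCC spike-in reads. With TMM factors, which centre the libraries on their shared genes, the ratio was 1.16 (1.10 to 1.23). These scalings were added after the data were seen. Antisense loci had a CPM ratio of 1.38 (1.35 to 1.40). Each locus with at least 20 reads was then tested within one table of all annotated genes and unannotated loci, 9645 features. The test was the two-sided exact conditional binomial test given both totals, with Benjamini-Hochberg adjusted p under 0.05 as the threshold. Of those features 26.5% passed, 18.1% higher in replicate 1 and 8.36% lower. Of the 49 loci 18 passed (36.7%), 14 higher and 4 lower in replicate 1, with a median log2 ratio of 0.78 against 0.29 over all features tested. Because a locus had to be read in both libraries, nothing is read from that count.

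**Figure D5:**
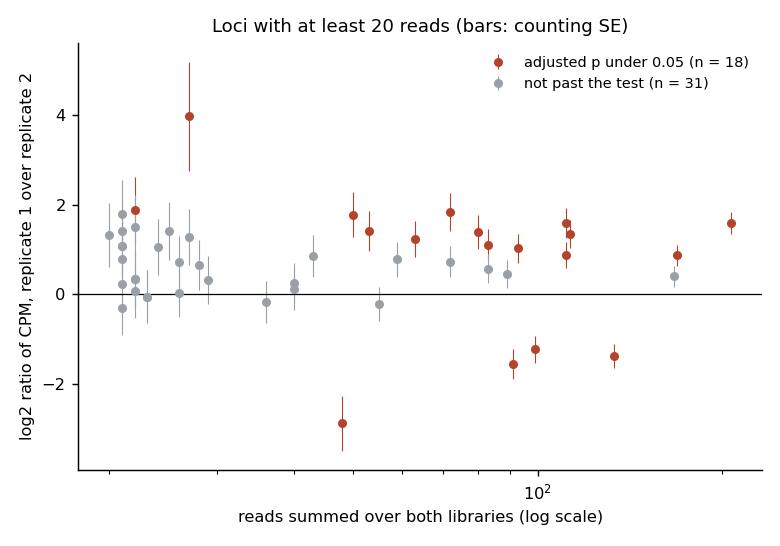
Log2 ratio of CPM, replicate 1 over replicate 2 (vertical), of the 49 loci with at least 20 reads against their summed reads (horizontal, log scale); bars are the counting SE and red points have an adjusted p under 0.05. The points past the test hold 14 loci higher and 4 lower in replicate 1.

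The largest ratio belonged to the 153-base chr5:8754332-8754484 locus, whose 26 and 1 reads in replicates 1 and 2 gave a CPM ratio of 23.1 (exact counting interval 3.79 to 947). The locus chr17:14072987-14075842 had 18 and 4 reads (log2 ratio of 1.87, SE 0.758, adjusted p = 0.0357, exact binomial test), and the call ended under TMM, DESeq2 and spike-in scaling and without a minimum of reads. Its leading models in the 2 libraries ended on the same base but began 2703 bases apart, so unlike models are compared. The locus chr2:75638269-75642874, a span of 4606 bases, had 58 and 14 (1.84, SE 0.423). Its models in the 2 libraries began 99 bases apart and ended 4359 bases apart, so the counts compare unlike models. With 10 and 9 further reads of other classes there, its CPM ratio went from 3.68 to 2.63 (exact counting interval 1.62 to 4.42). A locus of 221 bases, chr12:4115369-4115589, had 40 and 10 (1.78, adjusted p = 7.19e-04, exact binomial test), a call that ended under spike-in scaling (1.19, adjusted p = 0.0514). The most read locus, past Fgfr4, had a log2 ratio of 1.59 and an adjusted p of 1.41e-11 (exact binomial test).

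The 4 loci lower in replicate 1 were lower under each of the 3 other scalings tried too. The locus chr4:133096300-133101553 had 6 and 42 reads in replicates 1 and 2 (log2 ratio of -2.88, SE 0.608, adjusted p = 8.85e-08, exact binomial test). Models of other classes on its strand held a further 21 and 9 reads there, and with these 27 reads in replicate 1 and 51 in replicate 2 the log2 ratio was -1.08 (adjusted p = 0.00759, the same exact test, a count added after the data were seen). The spliced chr11:88890249-88896411 locus had 25 and 66 (-1.55, SE 0.336), chr19:4060333-4066103 had 40 and 93 (-1.38, SE 0.271), and the Pgk1-rs7 locus had 32 and 67 (-1.23, SE 0.308). At the chr19 locus the leading models of the 2 libraries began 1746 bases apart and ended 98 bases apart, so unlike models are compared there. Liver and muscle markers were higher in the same library, by the values given above, and their part in these differences was not tested.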

How the data were processed

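Read counts per transcript model were deposited by the authors as unscaled whole reads, with 1 table and 1 transcript annotation per library, per the file headers. The models carry TALON identifiers and classes on mm10 with GENCODE M21, per the file headers. Not given in the sources used here are the aligner, the TALON version and read filters. Models were merged with Python 3.11.15 code, and scaling alternatives came from edgeR 4.0.16 and DESeq2 1.42.0. Gene positions are those of GENCODE M21, and sequences and further gene names those of RefSeq GRCm38.p6. Of 38065 symbols in both, 38024 overlapped. Log2 ratios have 0.5 reads added. The library test was tested on simulated data. Members, lists and limits were chosen with earlier results of these data known. Named loci are the 10 with most reads, the 5 with most spliced reads in both libraries, the 4 largest ratios in each direction past the test, and the 4 most read beyond 50000 and within 5000 bases of a gene end.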

Additional observations from a re-analysis of the deposited data

Results flagged for a closer look

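Intergenic reads lay outside chromosomes 1 to 19 as well, which the selection leaves out. Chromosome X held 234 reads in replicate 1 and 86 in replicate 2, on 150 loci, 21 of them read in both libraries. Chromosome Y held 82 and 49 reads on 28 loci, 11 of them read in both, although the mice are labelled female. The most read of these, chrY:43918754-43923547 on the minus strand, had 37 and 31 reads. The source of the reads on chromosome Y was not tested, and no conclusion on sex is drawn from them. Unplaced sequences held 49 and 21 reads. Each value is above the 3 reads that a count of 0 allows. Groups of 2 libraries are too small for a check of single outlying samples.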

How the results depend on the processing

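The count of 748 loci was 763 with models merged within 1000 bases and 676 without loci that touch a gene on their strand, but 256 with at least 2 and 73 with at least 5 reads in each library. The spliced share over both libraries, 8.86%, was 10.5% without loci that touch a gene and 7.43% without the locus with most spliced reads, and 7.67% to 10.7% when each library was left out in turn. The library difference in that share, -3.04 points, was -1.06 points without the latter locus. The 180 loci within 5000 bases past a gene end were 101 with protein-coding ends only, 80 within 1000 bases and 19 with at least 5 reads in each library. The 18 loci past the library test (14 higher, 4 lower in replicate 1) were 13 under TMM and under DESeq2 scaling (9 and 4), 9 under spike-in scaling (5 and 4) and 5 with edgeR's exact test at an assumed coefficient of variation of 0.2 (4 and 1). The median log2 ratio of all features was 0.29, and 0.05, 0.05 and -0.29 under TMM, DESeq2 and spike-in scaling. The summed ratio of all loci, 1.38, became 1.16 with TMM factors, 1.17 with DESeq2 size factors and 0.919 with spike-in reads. That of the short band, 1.59, was 1.34, 1.34 and 1.06, and that of loci over 500 bases, 1.24, was 1.04, 1.05 and 0.826, in the same order. Among 20 named loci tested, 3 changed their call under TMM and DESeq2 scaling, 6 under spike-in scaling and 1 without a read minimum. No called locus turned round. Of the loci that had not passed, the one at Gm6969 had a log2 ratio of 0.40, which was -0.18 with spike-in reads, and the Gm29688 locus had 0.23, which was -0.02 with TMM or DESeq2 factors and -0.36 with spike-in reads. Counting reads of all classes at each locus, added later, left 18 loci past the test and changed no call of the 20. The cause was not tested. The tests for poly(A) signals and A-rich stretches over all loci were not run, since no genome was used. No paired analysis was possible because there is 1 group. Depth limits single loci: with 1 to 3 reads in a library, a ratio has an interval of many fold.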
